A study of Homo sapiens with 2 samples.

Results

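SUM159 is a human triple-negative breast cancer cell line, and the cells described here are SUM159 cells selected for doxorubicin resistance over a long period of escalating drug doses and then grown as 3D spheroids in Matrigel. They were taken as the cells of the doxorubicin-resistant spheroid population with at least 1000 unique molecular identifiers (UMIs, 1 for each captured transcript molecule). This gave 2558 cells of the 3776 barcodes of that population, and of 30122 barcodes in the series. The series held 2 samples of wild-type SUM159 cells, 1 of spheroids and 1 of attached cells, each on its own cartridge of the BD Rhapsody system and each pooling 3 tagged populations. Of these, doxorubicin-resistant spheroids were set beside paclitaxel-resistant and treatment-naïve spheroids, which shared their cartridge, and beside doxorubicin-resistant attached cells from the other cartridge. The spheroid labels call the drug populations treated and the series design calls them resistant, and each matrix was assigned to its population by the population named on it. Every population was measured once, so cells were not replicates, no test was run across them, and no p-value is given.

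Doxorubicin is an anthracycline that poisons topoisomerase II and damages DNA. Resistant cells often carry more of the efflux pumps of the ATP-binding cassette family. ABCB1 (P-glycoprotein), which exports doxorubicin from the cell, and ABCG2 both belong to it. A population of resistant cells can nonetheless hold cells in different states, because chemokine and cytokine genes are switched on in single cells, because cycling cells pass through waves of replication and mitotic genes, and because SUM159 cells range along a scale between epithelial and mesenchymal features. The question addressed here was which genes differed between cells of this population by more than the counting of molecules alone would give, and which of them rose and fell together.

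The 2558 cells held 10167156 UMIs, with a median of 3580.5 UMIs (1008 to 19519) and 131 genes per cell. The targeted breast cancer panel gave 323 genes with a UMI, and the 5 most abundant, GAPDH and VIM first among them, took 54.7% of all UMIs. At the edge of the cell minimum, the 41 cells less than 100 UMIs below it had an ABCB1 level of 4093 CPM (UMIs of a gene per 1000000 UMIs), and the 45 cells less than 100 UMIs above it had 3977 CPM. No barcode was shared between populations of the spheroid cartridge, and 65 of the 2558 cells carried a barcode that also occurred on the other cartridge. The pooled expression profile of their own population fitted the UMIs of 2192 cells (85.7%) best, that of paclitaxel-resistant spheroids fitted 256 cells better and that of treatment-naïve spheroids 110 cells. Levels in those populations are therefore given beside the rare genes, and the counts of variable genes, of pairs and of the splits by the 4 marker genes were repeated without these cells. The fit used all genes, so a gene that marked a group of cells also weighed on where that group was placed.

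The genes given as marks of the population were checked first. After each cell was thinned to 1000 UMIs, ABCB1 (chr7:87503017-87713295, GRCh38.p14) was detected in 68.8% of cells (95% exact binomial interval 67.0 to 70.6) in doxorubicin-resistant spheroids, against 68.3% in paclitaxel-resistant spheroids, 75.8% in doxorubicin-resistant attached cells and 8.76% in treatment-naïve spheroids. GPNMB (chr7:23246775-23275108), a lysosomal and cell surface glycoprotein, was detected in 38.3% of doxorubicin-resistant spheroid cells, against 7.21% of paclitaxel-resistant spheroid cells, 21.0% of doxorubicin-resistant attached cells and 2.46% of treatment-naïve spheroid cells. The chemokine CXCL14 (chr5:135570679-135578991) was detected in 2.81% of doxorubicin-resistant spheroid cells, against 0% of paclitaxel-resistant and 0.0819% of treatment-naïve spheroid cells, and in 11.4% of doxorubicin-resistant attached cells. The chemokine CCL4 (chr17:36103827-36105614) was found in 0.743% of doxorubicin-resistant spheroid cells, against 0.0924% and 0.0819% in paclitaxel-resistant and treatment-naïve spheroids and 0.341% (0.219 to 0.507) in doxorubicin-resistant attached cells. Intervals here and below cover counting error only. ABCB1 and GPNMB were thus carried by many cells, while CXCL14 and CCL4 marked rare ones. Median depth was 3580.5 UMIs, against 3293, 3712 and 3814 UMIs in paclitaxel-resistant spheroids, treatment-naïve spheroids and doxorubicin-resistant attached cells.

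Variation between cells was measured for the 246 genes with at least 50 UMIs. It is given as the coefficient of variation (CV) that remained after the variance expected from counting at each cell's depth was taken off, so that a CV of 1 means that the spread between cells equals the mean. A gene was called variable when its variance was at least 1.5 times the counting variance and its CV at least 0.5. By this rule 164 of 246 genes (66.7%) were variable, the median CV was 1.07, 135 genes had a CV of at least 1 and 56 a CV of at least 2. At 1000 UMIs per cell, 51.2% of the genes assessed were variable, against 48.5% in paclitaxel-resistant spheroids, 55.2% in treatment-naïve spheroids and 43.6% in doxorubicin-resistant attached cells.

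Genes with the highest CV were mostly those detected in few cells. FCGR3A, an Fc receptor of natural killer and myeloid cells, had the highest CV, 32.4, from 162 UMIs in 10 cells, and 1 cell held 71.6% of them. CCL4 followed with a CV of 21.8. Then came IGFBP3, which binds insulin-like growth factors (18.7), the protease gene GZMA of cytotoxic lymphocytes (16.1), the basal keratin KRT5 (15.5), the cell cycle inhibitor CDKN2A (15.1), the chemokine CCL3 (14.9) and the basal keratin KRT14 (13.7). The remaining genes among the first 15 were HLA-DRA, CD3D, CD244, CD74, RARB, IGFBP5 and CCL5, with CVs from 11.3 down to 8.44. In 49 of the 164 variable genes more than 50% of the UMIs lay in the 128 cells that held most of that gene, and in 18 genes 1 cell held at least 10% of them. A high CV at a low level therefore described a handful of cells, whereas ABCB1, S100A9 and the cell cycle genes varied across many cells. Several genes of high CV were higher in treatment-naïve spheroids on the same cartridge. KRT14 was at 66.6 CPM in doxorubicin-resistant spheroids, against 24.2 CPM in paclitaxel-resistant and 3032 CPM in treatment-naïve spheroids. IGFBP3 was at 14.2 CPM, against 19.6 and 864 CPM, and CXCL12, a stromal chemokine, at 13.4 CPM, against 16.2 and 669 CPM. KRT5 was at 51.6 CPM, against 6.61 and 479 CPM, IGFBP5 at 196 CPM, against 101 and 587 CPM, and CCL3 at 102 CPM, against 2.49 and 127 CPM. FCGR3A was at 15.9 CPM, against 0.125 and 0.926 CPM, GZMA at 10.2 CPM, against 3.37 and 1.48 CPM, CDKN2A at 10.9 CPM, against 8.85 and 2.59 CPM, and CD3D at 47.0 CPM, against 3.86 and 14.7 CPM, so these 4 were highest in doxorubicin-resistant spheroids among the 3 spheroid populations. The part of cells or free RNA of other populations in these CVs was not tested.

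**Figure D1:**
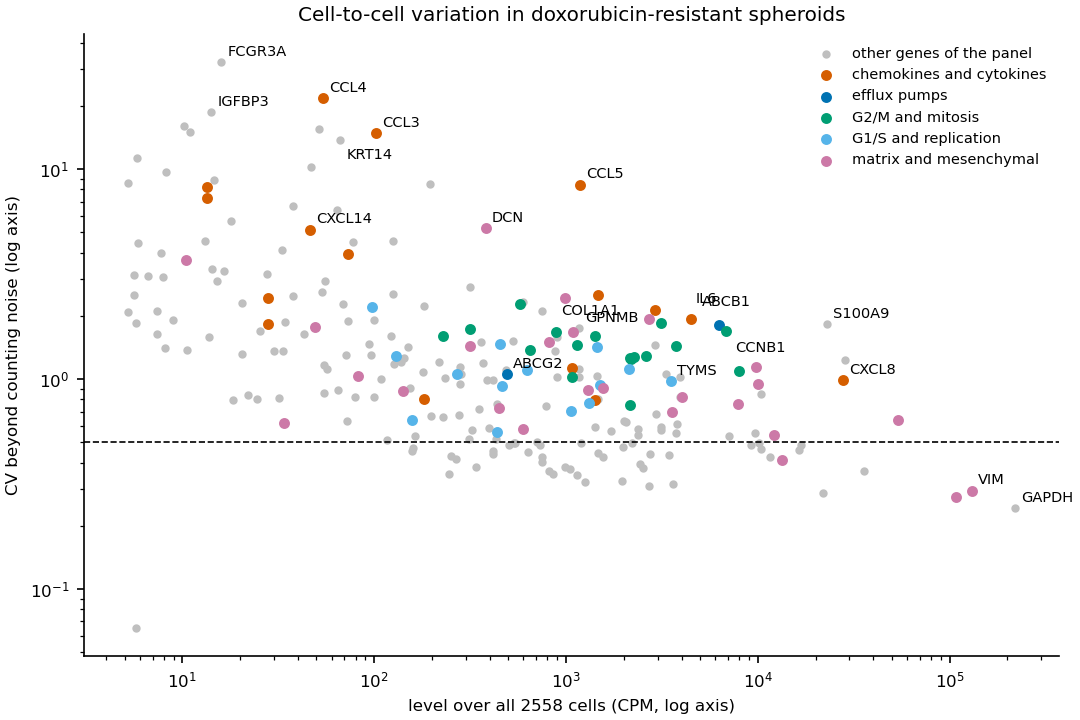
Level of each of the 246 assessed genes over all 2558 doxorubicin-resistant spheroid cells (x axis, CPM, log scale) against its CV beyond counting noise (y axis, log scale), each point 1 gene and colours marking gene lists. The dashed line is the CV minimum of 0.5, and ABCB1, at 6270 CPM and a CV of 1.81, stands above most genes of its level.

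The efflux pumps differed in how unevenly they were carried. The list held 4 pumps. ABCC1 and ABCC2 had no UMI here, and whether the panel measured them at all is not given. Both ABCB1 and ABCG2 were variable, against 66.7% of all genes. ABCB1 had 63748 UMIs, a level of 6270 CPM over the population, a CV of 1.81 and a variance 108 times that of counting. Its level was 0 CPM at the 10th percentile of cells, 2020 CPM at the median, 15417 CPM at the 90th and 58445 CPM at the 99th percentile. ABCG2 (chr4:88090264-88231626), the breast cancer resistance protein, had 490 CPM and a CV of 1.06, with a median of 237 CPM and a 90th percentile of 1187 CPM. ABCG2 thus varied by less than ABCB1, and its CV lay near the median of all assessed genes.

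A share of the cells showed no ABCB1 molecule although their depth would have given one. ABCB1 was at 0 UMIs in 497 of 2558 cells (19.4%, 17.9 to 21.0), where counting at the mean level would leave 0.0056%. Of 2279 cells deep enough to expect at least 10 ABCB1 UMIs, 411 had none. The share at 0 was 29.2% in cells under 2500 UMIs, 18.6% in cells from 2500 to under 4500 UMIs and 11.96% in deeper cells, so it fell with depth but did not vanish. At 1000 UMIs per cell, 798 cells had no ABCB1 UMI, where counting gives 6.06 cells, and 37 cells had at least 50. Cells at 0 had a median of 2753 UMIs, against 3815 UMIs in the others. Their GPNMB level was 1256 CPM, against 1156 CPM in the others, and their ABCG2 level 419 CPM, against 503 CPM. Both pumps were at 0 in 263 cells. Without thinning, ABCB1 was at 0 in 19.4% of doxorubicin-resistant spheroid cells, against 16.6% in paclitaxel-resistant spheroids, 11.6% in doxorubicin-resistant attached cells and 79.4% in treatment-naïve spheroids.

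**Figure D2:**
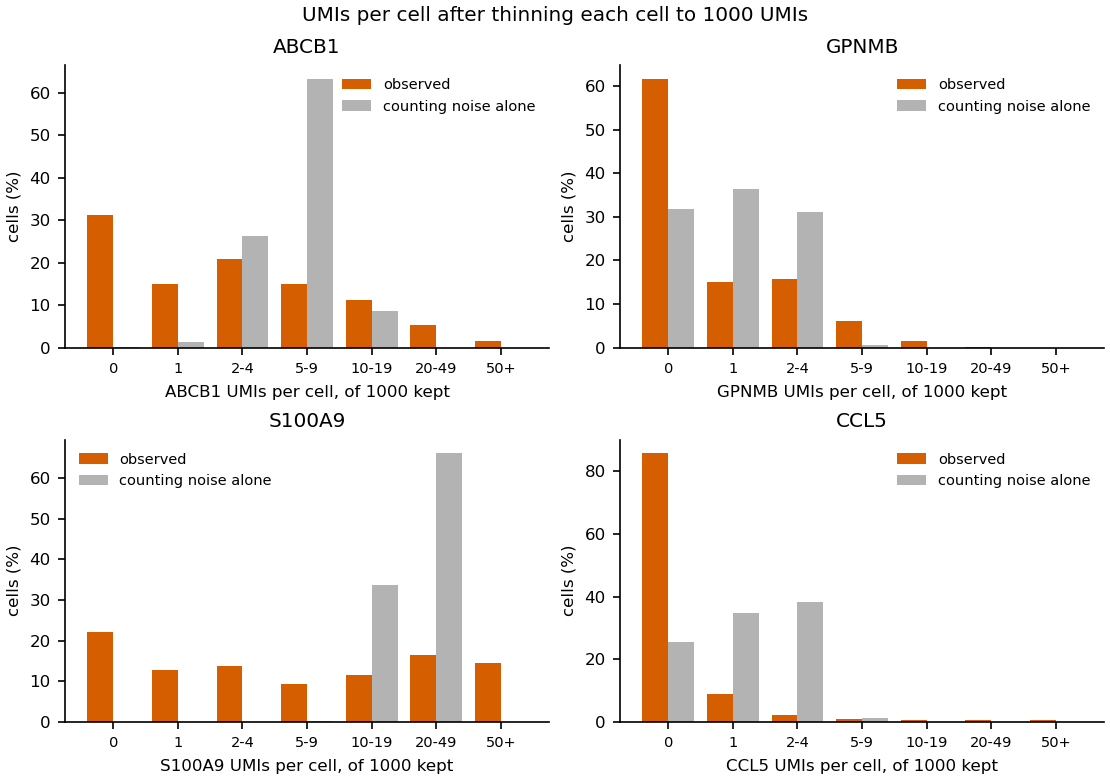
Percent of the 2558 cells (y axis) in each class of UMIs per cell after thinning to 1000 UMIs (x axis), for ABCB1, GPNMB, S100A9 and CCL5, with the observed share in orange, left, and the share that counting noise alone would give in grey, right. For ABCB1, 31.2% of cells had 0 UMIs, against 0.237% from counting alone.

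The variation of ABCB1 was not shared to a sizeable degree by any gene it could be paired with. Pairs of genes were described by Pearson's r of depth-corrected residuals across the 2558 cells, which share 1 library and differ in depth, with a size rule of r at least 0.2 or at most -0.2. None of the 212 pairs with ABCB1 passed it. Its highest r was 0.14, with the sphingosine kinase gene SPHK1, and its lowest -0.10, with GAPDH. ABCB1 and ABCG2 had an r of 0.10, against 0.13, 0.09 and 0.08 in paclitaxel-resistant spheroids, treatment-naïve spheroids and doxorubicin-resistant attached cells. ABCB1 was likewise near 0 with the mitotic cyclin CCNB1 (-0.01), the thymidylate synthase gene TYMS (0.01), IL6 (-0.01), COL1A1 (0.07) and GPNMB (0.04). ABCG2 passed the rule with 6 genes upward and 1 downward, highest with the mitochondrial protease gene PITRM1 (0.27) and lowest with fibronectin FN1 (-0.26).

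The 639 cells highest in ABCB1 were compared with the 639 lowest. Fold changes are ratios of summed CPM with a size rule of 2-fold and 50 UMIs in the higher group. ABCB1 averaged 18663 CPM in the high cells and 74.5 CPM in the low cells. Only 3 of 219 genes (1.37%) were higher and 5 (2.28%) lower, and most of them hung on single cells. IL1RN, the interleukin-1 receptor antagonist, was at 19.2 CPM in high cells and 5.51 CPM in low cells, a ratio of 3.49 (1.87 to 6.99), and of 3.02 without its top cell. The ratio of CDKN2A was 2.93 and 1.59 without its top cell, and that of GZMA 2.72 and 1.07. Of the lower genes, CCL5 had a ratio of 0.424 that became 0.629 without 1 cell, KRT14 one of 0.277 that became 0.606, and IGFBP3 one of 0.195 that became 0.707. KRT5 (0.156) and FCGR3A (0.0142) remained below 0.5 without their top cells, at 0.266 and 0.249, on UMIs from 25 and 3 low cells. High and low cells differed in median depth, 3984 against 3099 UMIs, and in the share best fitted by their own population, 91.7% against 81.2%, and the part of either in these ratios was not tested. After thinning, 0 genes were higher and 3 lower.

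GPNMB varied about as much as ABCB1 and kept other company. It was detected in 57.1% of cells without thinning, at 1172 CPM over the population and a CV of 1.75, with a median of 304 CPM, a 90th percentile of 3373 CPM and a 99th of 10494 CPM. Of its 212 pairs, 2 passed the rule, with the lysosomal protease cathepsin D gene CTSD (0.26) and with the complement protease gene C1S (0.23), and the lysosomal membrane gene LAMP1 came next (0.20). The CTSD pair stood at 0.14 in paclitaxel-resistant spheroids, 0.01 in treatment-naïve spheroids and 0.20 in doxorubicin-resistant attached cells. In the lysosome list, 3 of 6 genes were variable, against 66.7% of all genes, and 3 of 15 pairs passed upward, against 3.63% of all pairs.

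The 639 cells highest in GPNMB carried more of several low-level genes. Of 219 genes, 10 (4.57%) were higher and 4 (1.83%) lower than in 639 cells with no GPNMB UMI. Decorin, DCN, a matrix proteoglycan, was at 628 CPM in high cells and 139 CPM in low cells, a ratio of 4.52 (4.00 to 5.12) with UMIs in 149 and 97 cells. IL1RN had a ratio of 6.69, the fibroblast activation protease gene FAP 3.60, the integrin ITGB2 2.92 and the melanosome transport gene MLPH 2.55, and all of these kept a ratio above 2 without their top cell. After thinning, DCN and the sphingosine phosphate receptor gene S1PR1 alone remained of the 10 higher genes and CCL4 of the 4 lower ones. GPNMB-high cells had a median of 3664 UMIs, against 2961 UMIs in the cells at 0, and the part of depth in these ratios was not tested. GZMA (3.46) dropped to 1.36. CCL4 (0.0237), KRT14 (0.117) and the cadherin CDH3 (0.361) were lower with and without their top cell, while KRT5 (0.306) was at 1.22 without it. The CCL4 ratio rested on few cells, with 12 UMIs in 5 high cells and 438 UMIs in 10 cells at 0, of which 1 cell held 41.6%. As 42.9% of all cells had no GPNMB UMI, the 639 were taken in file order, and against all cells at 0 the counts were 11 higher, 7 of them shared, and 4 lower, all shared.

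The chemokines and cytokines were expressed more unevenly than the panel as a whole. Of 23 listed, 16 could be assessed and 15 were variable, against 66.7% of all genes, with a median CV of 2.47 against 1.07 over all assessed genes. The most variable were CCL4, CCL3, CCL5, the stromal chemokine CXCL12 (8.20) and IL1RN (7.26). The least variable were CXCL16 (0.80), a membrane-bound chemokine, and CSF1 (0.79), the macrophage growth factor. Within the list 6 of 78 pairs passed the rule, against 3.63% of all pairs, and the median r was 0.02, so its members did not move as 1 block.

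CXCL14 was held by 185 cells (7.23%) with 470 UMIs and a CV of 5.15, and the top 6 of these cells had 28, 26, 16, 16, 13 and 12 UMIs. None of its 212 pairs passed the rule, and the highest r was 0.11, with the microtubule gene MAPT. In the 185 cells, 3 of 243 genes (1.23%) were higher and 12 (4.94%) lower than in the 2373 cells without it. The complement gene C1QA (3.13), TCL1A (2.09) and the EGF receptor ligand AREG (2.03) were higher, and all 3 dropped below 2 without their top cell, to 1.88, 1.79 and 1.34. The chemokine CCL5 was at 182 CPM in CXCL14-positive cells and 1282 CPM in the others, a ratio of 0.142 (0.121 to 0.166), with a UMI in 61 of 185 and 761 of 2373 cells. CCL4 (0.0751) and the immune checkpoint gene LAG3 (0.138) were lower too, on 4 and 1 UMIs, as were IGFBP3 (0.218) and CDKN2A (0.284) on 3 UMIs each, and FCGR3A had 0 UMIs, against 162 UMIs in 10 of the other cells. CXCL14-positive cells had a median of 4519 UMIs, against 3512 UMIs in the others, and the part of depth in these ratios was not tested. After thinning, none of the 3 higher genes and CCL5 alone of the 12 lower ones remained.

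CCL4 had 549 UMIs in 26 cells and none in the other 2532. In 20 of them it had only 1 to 3 UMIs, while 6 cells with 182, 178, 68, 46, 41 and 7 UMIs held 522 of the 549. Of the 26 cells, 11 (42.3%) had a CCL3 UMI, against 3.40% of all cells, and 15 (57.7%) a CCL5 UMI, against 32.1% of all cells. The top cells were nonetheless unlike each other. The first had no CCL3 or CCL5 UMI, the second had 280 CCL5 UMIs and no CCL3, the third had 86 CCL3 UMIs and 1 CCL5 UMI, and the fifth had 234 CCL3 and 13 CCL5 UMIs.

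In the 26 CCL4 cells 10 of 245 genes (4.08%) were higher and 22 (8.98%) lower than in the other 2532. CCL3 was at 3975 CPM in them and 65.0 CPM in the others, a ratio of 61.1 (53.7 to 69.4), and of 24.1 without its top cell. CCL5 had a ratio of 16.3, and 9.81 without its top cell, EBF4, a transcription factor gene, one of 5.51 and 3.24, and TNFSF9, the ligand of 4-1BB, one of 3.14 and 2.22. The T-cell receptor gene CD3D (22.7) and the transcription factor FOXC1 (3.16) fell to 0.794 and 0.777 without 1 cell. Lower genes included collagen COL1A1 at 453 CPM in CCL4 cells and 2730 CPM in the others (ratio 0.166, 0.121 to 0.223), the mesenchymal factor TWIST1 (0.145), ABCG2 (0.188), the matrix gene THBS1 (0.227), DCN (0.269) and ABCB1 (0.367). ABCB1 still had a UMI in 22 of the 26 CCL4 cells, against 2039 of the other 2532, at 2317 CPM against 6308 CPM. MLPH (0.272) rested on 1 UMI and its interval included 1. After thinning, CCL3 and CCL5 remained higher, and ABCG2, COL1A1, THBS1 and CENPA lower. Of the 26 cells, 21 were best fitted by the profile of their own population.

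CCL5, an inflammatory chemokine like CCL3 and CCL4, separated into a broad low level and a small high group. It had a UMI in 822 cells, of which 554 (67.4%) had exactly 1, while 89 cells with at least 10 UMIs held 91.1% of its 12043 UMIs. CCL5 had an r of at least 0.2 with EBF4 (0.34), CCL3 (0.24) and the interleukin-7 receptor gene IL7R (0.22). Clustering placed 45 cells together, cluster 8, which held 82.6% of all CCL5 UMIs with 28 to 1252 per cell and a median of 141, whereas the highest cell outside had 96. CCL3 or CCL4 was found in 17 of these 45 cells. Their EBF4 level was 9.51 times that of the other cells with a UMI in 31 of them, IL7R 6.09 times in 24, and ABCG2 0.217 times.

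CCL5 was present in the other populations too. The CCL5 level was 1185 CPM in doxorubicin-resistant spheroids, against 824 CPM in paclitaxel-resistant spheroids, 851 CPM in doxorubicin-resistant attached cells and 8074 CPM in treatment-naïve spheroids. Of the 45 cells, 24 (53.3%) were best fitted by their own population, against 85.7% of all cells. Without cells fitted better by another profile, the r of CCL5 was 0.17 with EBF4 and 0.08 with CCL3. CCL5 was itself part of that fit, so the share and the lower r are not separate from the CCL5 level. The barcodes under 1000 UMIs had a CCL5 level of 2759 CPM. The part of cells or free RNA of other populations in the CCL5 pattern was not tested.

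Markers of immune cells were looked for because several of the rare genes are known from lymphocytes. The 14 T and NK lymphocyte markers summed to 258 CPM in doxorubicin-resistant spheroids, against 186, 93.6 and 247 CPM in paclitaxel-resistant spheroids, treatment-naïve spheroids and doxorubicin-resistant attached cells, and 13 of 14 had a UMI. In the 45 cells of the CCL5 cluster they summed to 828 CPM, and in the 26 CCL4 cells to 1133 CPM, of which CD3D gave 552 CPM and 886 CPM. Most of this CD3D lay in 1 cell of each group, with 68.3% of its UMIs in the cluster and 96.5% in the CCL4 cells. The defining leukocyte gene PTPRC (CD45) had 17 UMIs in 17 of 2558 cells and 0 UMIs in both groups, CD8A was not seen, and CD3E had 4 UMIs and none in either group. The 8 myeloid markers summed to 392 CPM, against 138, 437 and 138 CPM in paclitaxel-resistant spheroids, treatment-naïve spheroids and doxorubicin-resistant attached cells. In the CCL5 cluster they summed to 1696 CPM, of which FCGR3A gave 895 CPM and CD14 734 CPM. There 1 cell held 87.2% of the FCGR3A UMIs, and CD14 was found in 19 cells. LYZ, C1QA, CX3CR1 and CD86 had 0 UMIs in the cluster. The most abundant of the 14 lymphocyte markers was NCAM1, at 163 CPM, in 1058 cells.

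IL6, IL1B, CXCL8 and PTGS2, 3 inflammatory secreted factors and the prostaglandin synthase induced with them, were related in 5 of their 6 pairs at the rule of 0.2. CXCL8 and IL6 had an r of 0.37, IL1B and IL6 0.34, CXCL8 and IL1B 0.32, CXCL8 and PTGS2 0.28, and IL6 and PTGS2 0.24, while IL1B and PTGS2 stayed under the rule at 0.17. The pair of IL1B and IL6 stood at 0.25 and 0.21 in paclitaxel-resistant and treatment-naïve spheroids, and at -0.03 in doxorubicin-resistant attached cells, and IL6 and PTGS2 at 0.17, 0.15 and 0.01. The immediate early genes JUN and RHOB (0.44), and JUN and MYC (0.39), moved together as well. IL6 itself was at 4493 CPM with a CV of 1.92, a median of 811 CPM and a 90th percentile of 11702 CPM. CXCL8 was almost ubiquitous, with a UMI in 99.3% of cells, 27888 CPM and a CV of 0.99. In paclitaxel-resistant and treatment-naïve spheroids IL6 was at 1517.5 and 3570 CPM, and CXCL8 at 44681 and 79543 CPM. PTGS2 was at 1475 CPM in doxorubicin-resistant spheroids, against 1549 and 16004 CPM in these 2 populations, and IL1B at 2905 CPM, against 1517 and 6477 CPM.

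Cells were also split by IL6, a choice made after these pairs were seen. In the 639 cells highest in IL6, 11 of 221 genes (4.98%) were higher and 3 (1.36%) lower than in 639 of the cells without IL6. IL1B was at 5505 CPM in IL6-high cells and 1081 CPM in IL6-negative cells, a ratio of 5.09 (4.86 to 5.34). The cytokine gene TNF had a ratio of 4.00, CXCL8 2.62, JUN 2.60 and PTGS2 2.49, each with over 2-fold left without its top cell. IL6-high cells were deeper, with a median of 4355 UMIs against 2465.

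The promoters of IL6 and CXCL8 are shown because these genes formed the highest of the named cytokine pairs. They are RefSeq sequences of GRCh38.p14, from 250 bases before to 50 after the start site, in the direction of the gene. Capitals mark matches to GGNNTTTCC, read on both strands, 1 form of the site known to be bound by NF-kB.
IL6, chr7:22726950-22727249, plus strand: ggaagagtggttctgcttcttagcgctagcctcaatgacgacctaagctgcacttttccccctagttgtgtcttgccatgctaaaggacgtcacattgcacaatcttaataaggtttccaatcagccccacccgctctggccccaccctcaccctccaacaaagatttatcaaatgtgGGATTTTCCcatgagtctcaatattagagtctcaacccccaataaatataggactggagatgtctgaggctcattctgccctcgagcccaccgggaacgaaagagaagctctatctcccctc
CXCL8, chr4:73740319-73740618, plus strand: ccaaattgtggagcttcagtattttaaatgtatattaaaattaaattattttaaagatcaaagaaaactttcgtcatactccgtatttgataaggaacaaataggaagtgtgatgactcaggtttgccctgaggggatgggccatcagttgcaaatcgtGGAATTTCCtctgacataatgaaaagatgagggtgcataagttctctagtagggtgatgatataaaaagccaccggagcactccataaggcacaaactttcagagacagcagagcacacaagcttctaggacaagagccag
The match lay 72 bases before the start site of IL6 and 91 bases before that of CXCL8. The same letters occurred in 6.26% of 35116 promoters of that length, and in 6 of the 16 cytokine and chemokine genes with an entry. A match describes the sequence and not a site in use.

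The cell cycle gave the strongest shared variation. All 17 assessed genes of the G2/M and mitosis list were variable, against 66.7% of all genes, with a median CV of 1.44, against 1.07. All 136 pairs among them passed the rule with a median r of 0.67, against 3.63% and a median of 0.02 over all 22578 pairs. The highest were the mitotic cyclin CCNB1 with CDC20, the activator of the complex that destroys it (0.87), the spindle proteins NUSAP1 and PRC1 (0.86), the kinesin KIF2C with PRC1 (0.83), and the survivin gene BIRC5 with NUSAP1 (0.83) and PRC1 (0.82). CCNB1 and CDC20 stood at 0.92, 0.91 and 0.87 in paclitaxel-resistant spheroids, treatment-naïve spheroids and doxorubicin-resistant attached cells. The summed level of the list was 29.4 times as high at the 90th percentile of cells as at the 10th. Among its members the histone variant CENPA (CV 2.29), the ubiquitin-conjugating enzyme UBE2C (1.85), NDC80 (1.73), CCNB1 (1.70) and KIF2C (1.67) varied most, and MELK (1.02) and UBE2T (0.75) least.

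The G1/S and replication genes formed a second, looser group. Of the list 14 genes were assessed and 13 were variable, against 66.7% of all genes, with a median CV of 1.02 that lay just under the 1.07 of all genes. Of 91 pairs 76 passed the rule, against 3.63% of all pairs, with a median r of 0.35. The most variable were cyclin E2 CCNE2 (2.21), CDCA7 (1.47), the ribonucleotide reductase subunit RRM2 (1.43), DTL (1.29) and MYBL2 (1.11), and the least LIN9 (0.64) and the kinase gene CDC7 (0.56). CCNE2 and the replicative helicase subunit MCM6 had an r of 0.45. Between the lists the median r over 238 pairs was 0.11, with 78 at 0.2 or above and 10 at -0.2 or below. MCM6 was lower where some mitotic genes were high, with an r of -0.30 with CCNB1 and -0.30 with the securin gene PTTG1. It also passed the rule with CDC20 (-0.24) and KIF2C (-0.20), but not with BIRC5 (-0.17), NUSAP1 (-0.16) or PRC1 (-0.13). The CCNB1 pair stood at -0.30 in paclitaxel-resistant spheroids, -0.15 in treatment-naïve spheroids and -0.45 in doxorubicin-resistant attached cells. By rank correlation of CPM it was -0.11.

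Promoters of 4 genes of the 2 tightest mitotic pairs are shown, again from RefSeq, GRCh38.p14, in the direction of the gene. Capitals mark CCAAT, the box bound by NF-Y, and TTTGAA or TTTAAA, 2 forms of the cell cycle homology region known from mitotic promoters. Both strands were searched, so that ATTGG and TTCAAA are the first 2 motifs on the other strand, and the motifs did not overlap.
CCNB1, chr5:69166900-69167199, plus strand: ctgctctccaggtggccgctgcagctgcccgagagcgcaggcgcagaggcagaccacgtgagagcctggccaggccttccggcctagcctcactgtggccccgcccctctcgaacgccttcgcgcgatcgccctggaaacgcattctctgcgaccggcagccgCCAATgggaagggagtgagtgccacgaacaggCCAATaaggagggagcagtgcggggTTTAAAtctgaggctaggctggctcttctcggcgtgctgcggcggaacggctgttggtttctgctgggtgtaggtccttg
CDC20, chr1:43358731-43359030, plus strand: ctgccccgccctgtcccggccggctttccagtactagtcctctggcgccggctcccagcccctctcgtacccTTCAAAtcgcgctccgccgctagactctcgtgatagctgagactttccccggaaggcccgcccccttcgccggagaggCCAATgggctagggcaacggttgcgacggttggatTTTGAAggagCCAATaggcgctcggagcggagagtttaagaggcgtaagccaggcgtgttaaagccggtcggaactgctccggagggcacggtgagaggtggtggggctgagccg
NUSAP1, chr15:41332631-41332930, plus strand: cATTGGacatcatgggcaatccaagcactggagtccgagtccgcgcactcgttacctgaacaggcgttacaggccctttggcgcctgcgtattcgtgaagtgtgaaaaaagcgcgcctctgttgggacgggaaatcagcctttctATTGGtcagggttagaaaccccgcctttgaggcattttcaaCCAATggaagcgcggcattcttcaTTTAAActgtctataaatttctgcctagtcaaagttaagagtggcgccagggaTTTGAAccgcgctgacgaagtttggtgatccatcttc
PRC1, chr15:90994486-90994785, minus strand: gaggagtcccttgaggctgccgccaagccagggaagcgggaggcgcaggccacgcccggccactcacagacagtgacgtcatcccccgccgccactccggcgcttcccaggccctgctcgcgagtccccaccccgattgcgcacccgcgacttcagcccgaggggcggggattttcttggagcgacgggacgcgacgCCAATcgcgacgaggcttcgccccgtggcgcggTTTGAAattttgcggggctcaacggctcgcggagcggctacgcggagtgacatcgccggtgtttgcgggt
In CCNB1 the boxes lay 87 and 55 bases, and TTTAAA 30 bases, before the start site, and in PRC1 CCAAT lay 53 and TTTGAA 20 bases before it. Of the 16 mitotic genes with an entry, 11 held CCAAT, 12 TTTGAA and 6 TTTAAA. Of the 17 replication genes with an entry, 8 held CCAAT, 1 TTTGAA and 3 TTTAAA. Over 35116 promoters the shares were 34.6%, 15.2% and 12.2%.

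The matrix and mesenchymal list held genes of very different kinds. Of 25 assessed, 20 were variable, with a median CV of 0.89, and 14 of 276 pairs passed the rule upward and 3 downward with a median r of 0.03. These counts compare with 66.7% of all genes, a median CV of 1.07, and 3.63% and 0.633% of all pairs. DCN (5.26), FAP (3.70), collagen COL3A1 (2.44), COL1A1 (1.94) and TGFB3 (1.77) varied most, while the intermediate filament VIM (0.29) and galectin LGALS1 (0.27) were nearly even at 130531 and 107708 CPM. COL1A1 and the PDGF receptor gene PDGFRB gave the highest r outside the cell cycle lists, 0.57, against 0.47, 0.47 and 0.42 in paclitaxel-resistant spheroids, treatment-naïve spheroids and doxorubicin-resistant attached cells. IGFBP7, a secreted binding protein, joined them with an r of 0.42 with COL1A1 and 0.39 with PDGFRB, and THBS1 with 0.30 with COL1A1. The pair of COL1A1 and IGFBP7 stood at 0.36 and 0.35 in the other spheroids and at 0.04 in doxorubicin-resistant attached cells. COL1A1 and COL3A1, the 2 fibrillar collagens, had an r of only 0.11, and COL1A1 fell with the epithelial keratin KRT18 (-0.24).

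Splitting cells by COL1A1, again after the pairs were seen, gave the broadest difference of the splits made. Of 219 genes, 28 (12.8%) were higher and 17 (7.76%) lower in the 639 cells highest in COL1A1 than in the 639 lowest. PDGFRB was at 1628 CPM in COL1A1-high cells and 304 CPM in COL1A1-low cells, a ratio of 5.36 (4.95 to 5.82). MLPH had a ratio of 12.4, the adhesion gene VCAM1 7.88, DCN 5.43 and IGFBP7 4.28. CCL5 was lower (0.155), as were TNFSF9 (0.257) and the p53 family gene TP73 (0.336). CCL4 was not seen in COL1A1-high cells, against 494 UMIs in 17 COL1A1-low cells. ABCB1 had an r of 0.07 with COL1A1. Of COL1A1-high cells 80.6% were best fitted by their own population, against 90.9% of COL1A1-low cells, and this split was not repeated without the other cells.

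S100A9, a calcium-binding protein of inflamed epithelia and myeloid cells, was among the most widely spread genes. It was at 22941 CPM with a CV of 1.83, at 194 CPM at the 10th percentile of cells, 4926 CPM at the median and 64395 CPM at the 90th percentile. It rose with its partner S100A8 (r 0.35) and with the endotoxin receptor gene CD14 (0.27). In a split chosen after this was seen, 19 of 219 genes (8.68%) were higher and 9 (4.11%) lower in S100A9-high than in S100A9-low cells. S100A8 had a ratio of 9.07 (6.90 to 12.1), CD14 7.25 and complement C4A 3.29, while the adhesion gene ALCAM (0.387), COL1A1 (0.438) and ABCG2 (0.449) were lower. S100A9 was at 11164 CPM in paclitaxel-resistant spheroids, 63354 CPM in treatment-naïve spheroids and 56.7 CPM in doxorubicin-resistant attached cells.

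Over all 22578 pairs of 213 genes, 820 (3.63%) had an r of at least 0.2 and 143 (0.633%) one of at most -0.2. Both genes were in the cell cycle lists in 290 of the 820, and neither in 401. Further pairs outside the cycle joined the detoxifying enzyme GSTP1 with the nucleotide kinase NME1 (0.53) and the basal keratin KRT17 with VIM (0.44). Others were CTNNB1 with RAB7A (0.43), CD44 (0.42) and MTDH (0.41), the complement genes C1S and C4A (0.40), and the keratins KRT18 and KRT8 (0.40). The nucleoside kinase DCK had an r of 0.41 with MELK of the G2/M list, which fell to 0.18 after thinning. The pair of KRT17 and VIM stood at 0.43 in paclitaxel-resistant spheroids, and at 0.12 and 0.14 in treatment-naïve spheroids and doxorubicin-resistant attached cells. The aldo-keto reductase AKR1C1 and the arginase ARG2 had an r of 0.35.

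**Figure D3:**
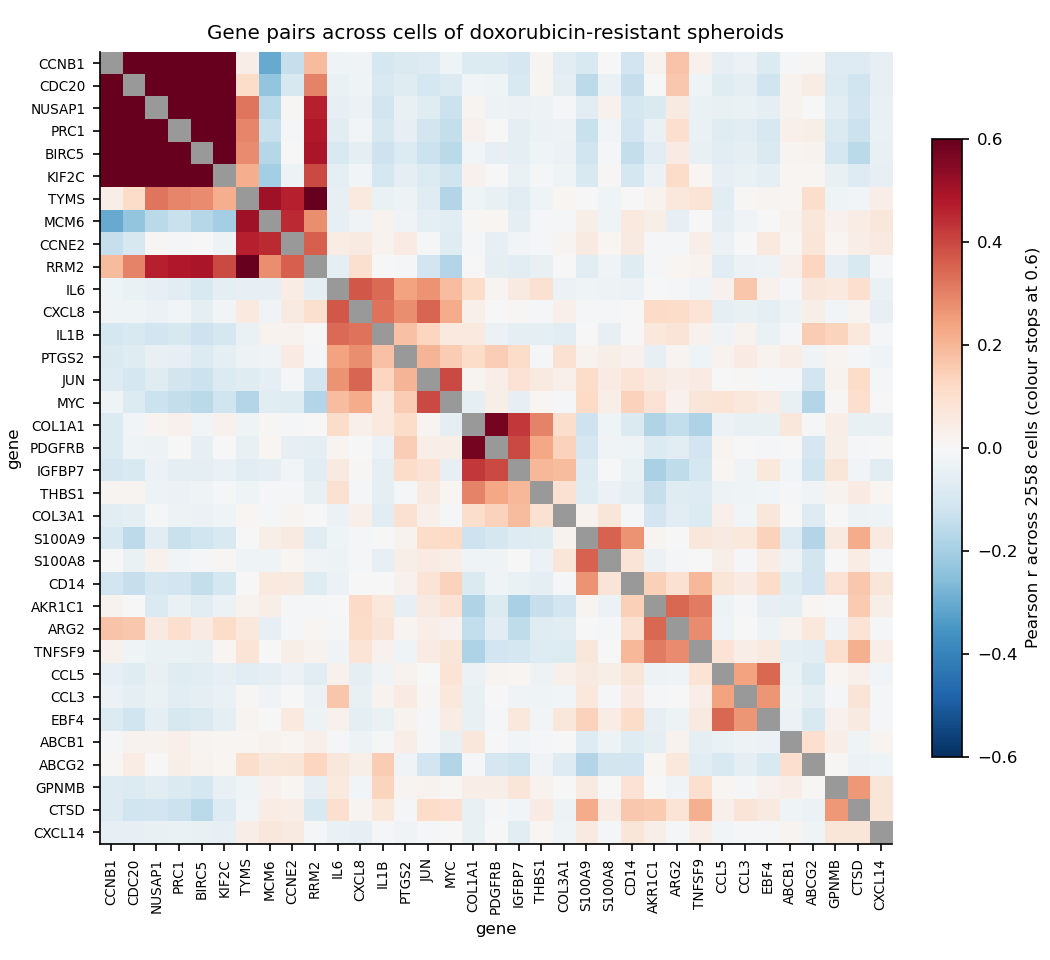
Pearson's r across the 2558 cells for pairs of 35 genes, given on both axes (red positive, blue negative, colour ending at 0.6, grey for a gene with itself). Red joins the mitotic genes, CXCL8 and IL6 with IL1B, PTGS2 and JUN, JUN with MYC, and COL1A1 with PDGFRB and IGFBP7. IL1B is pale with JUN (0.13) and MYC (0.06), and ABCB1 and CXCL14 show no strong colour with any gene.

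The pairs were compared with the other populations, which were measured with the same panel. Of the 530 pairs at 0.2 or above with at most 1 cell cycle gene, 351 of 507 measurable pairs were also at 0.2 or above in paclitaxel-resistant spheroids, 340 of 514 in treatment-naïve spheroids and 174 of 524 in doxorubicin-resistant attached cells. Over all measurable pairs, cell cycle pairs included, 987 of 19306, 1386 of 19900 and 639 of 21115 were at 0.2 or above in the same order. The negative pairs leaned on the most abundant genes. GAPDH took part in 39 of the 143, and 86 involved 1 of the 5 most abundant genes. Among the lowest were GAPDH with ITGB1 (-0.43), CTNNB1 (-0.41), AKT1 (-0.39), CD44 (-0.38) and CAV1 (-0.37), and NME1 with RNASE4 (-0.38) and FN1 (-0.38). With the 5 most abundant genes left out of the cell totals, these 7 lay between -0.28 and -0.09, 45 of the 143 stayed at -0.2 or below, and 6 of the 143 lay above 0. GAPDH also fell with depth, with an r of -0.36 between its CPM and the log of the cell total.

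**Figure D4:**
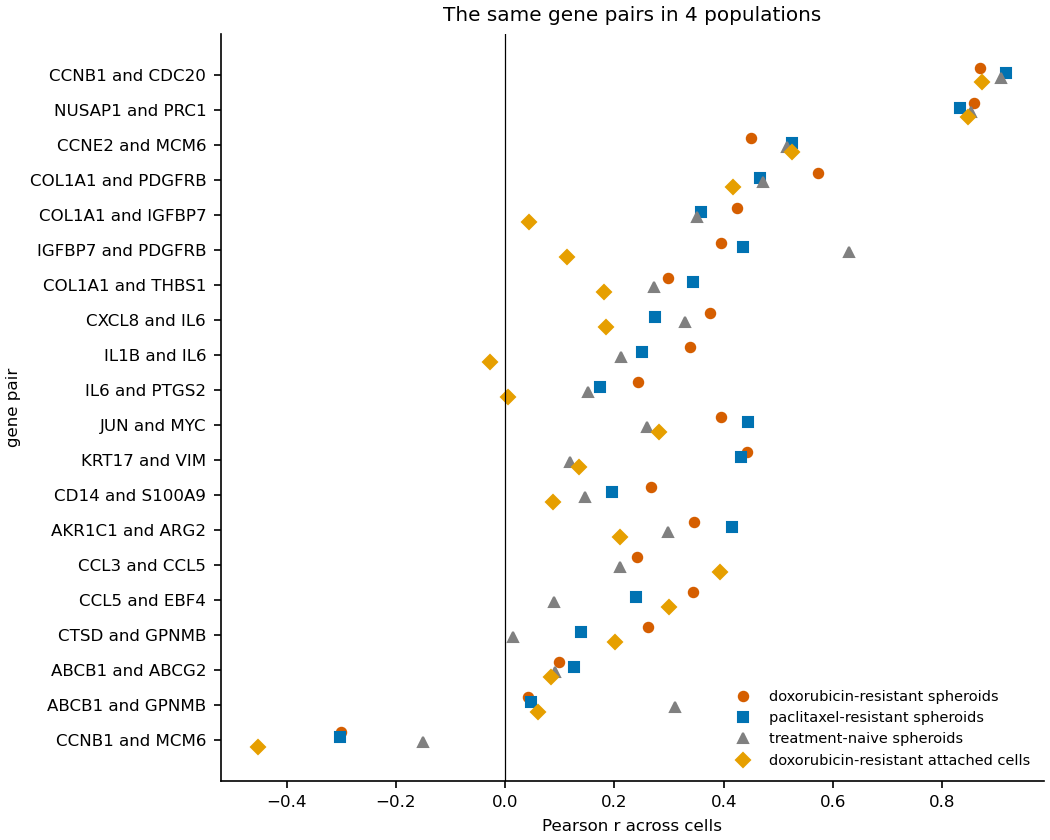
Pearson's r across cells (x axis) for 20 gene pairs (y axis) in doxorubicin-resistant spheroids (2558 cells), paclitaxel-resistant spheroids (2164), treatment-naïve spheroids (2442) and doxorubicin-resistant attached cells (7032), each point 1 population. CCNB1 and CDC20 lie from 0.87 to 0.92 in all 4, whereas COL1A1 and IGFBP7 lie from 0.35 to 0.42 in the spheroids and at 0.04 in attached cells, and a point is left out where a gene was too rare to be paired.

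With the cell cycle lists left out, the cells fell into 9 clusters, which are described by number because their genes built them. Cluster 0 (534 cells) led with IGFBP5 (2.81 times the level of the other cells), the checkpoint ligand CD274 (2.28) and cyclin A1 CCNA1 (1.99), followed by CENPA and UBE2C, and was low in S100A9 (0.143). IGFBP5 was found in 14.8% of its cells, against 13.4% of the others. In the cluster 1 cell held 24.1% of the IGFBP5 UMIs and 1 cell 18.1% of the CCNA1 UMIs. The summed G2/M level of cluster 0 was 55245.5 CPM, against 39392 CPM over all cells. Cluster 1 (464) led with IL6 (4.83), PTGS2 (4.13), IL1B (3.93), TNF (2.40) and CXCL8 (2.31). Cluster 2 (451) led with S100A9 (8.99), followed by GZMA, of which 1 cell held 59.6%, CCL3 (4.68), of which 1 cell held 44.3% and which 2.88% of the cluster's cells carried, against 3.51% of the others, CD14 (3.56) and S100A8 (2.98). Across all cells IL6 and S100A9 had an r of -0.03.

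Cluster 3 (325 cells) led with PDGFRB (4.73), IGFBP7 (4.61), COL1A1 (4.26), COL3A1 (4.16) and VCAM1 (3.95). PDGFRB was at 746 CPM in doxorubicin-resistant spheroids, against 1390 CPM in paclitaxel-resistant and 2551 CPM in treatment-naïve spheroids. In the same order IGFBP7 was at 2909, 3542 and 7621 CPM, COL1A1 at 2708, 2334 and 4656 CPM, and COL3A1 at 988, 4328 and 17409 CPM. The part of other populations in cluster 3 was not tested. Cluster 4 (234) was shallow, with a median of 2079.5 UMIs and 84 genes, and led with DCN (18.2), present in 26.1% of its cells, IGFBP3, of which 1 cell held 96.5%, S1PR1 (1.78), GAPDH (1.64) and LGALS3 (1.58). DCN was at 381 CPM in doxorubicin-resistant spheroids, against 348 CPM in paclitaxel-resistant and 3468.5 CPM in treatment-naïve spheroids. Cluster 5 (228) led with KRT14 (7.17), of which 1 cell held 58.8%, AKR1C1 (4.85), TNFSF9 (2.61), ARG2 (2.07) and TP73 (1.83). Its AKR1C1, a steroid- and carbonyl-reducing enzyme, was at 96848 CPM, against 19985 CPM in the other cells. Cluster 6 (155) led with the metastasis-associated gene S100A4 (4.85), followed by CCNA1 (2.44), of which 1 cell held 70.1%, CENPA (1.36), NDC80 (1.30) and CD40 (1.29).

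Cluster 7 (122 cells, 4.77%) was set apart mainly by ABCB1. ABCB1 was at 44061 CPM in it and 4337 CPM in the other cells, a ratio of 10.2, and the next genes were TNF (1.73), S1PR1 (1.69), AREG (1.67) and ESM1 (1.52). Of the cluster's AREG UMIs 1 cell held 71.3%, and of its TNF UMIs 1 cell held 28.3%. AREG was found in 13.9% of the cluster's cells, against 17.4% of the others, and TNF in 8.20%, against 9.56%. The summed G2/M level of cluster 7 was 38869 CPM, against 39392 CPM over all cells, its median depth 4002 UMIs, and 98.4% of its cells were best fitted by their own population. That fit included ABCB1, at 6270 CPM in doxorubicin-resistant, 3540 CPM in paclitaxel-resistant and 234 CPM in treatment-naïve spheroids. The share is therefore not separate from the ABCB1 level. Cluster 8 was the group of 45 CCL5 cells described above, which also led in FCGR3A, CCL4 and KRT5 through 1 cell each with 87.2%, 97.3% and 96.5% of the UMIs, and in CCL3 (15.8) with UMIs in 16 cells. The share of cells best fitted by their own population was 96.6% in cluster 0, 71.1% in cluster 3, 55.5% in cluster 6 and 53.3% in cluster 8. The genes that led these clusters were part of the fit, so these shares are not separate from them. S100A4 was at 9811 CPM in doxorubicin-resistant spheroids, against 26825 CPM in paclitaxel-resistant and 24877 CPM in treatment-naïve spheroids, and the part of other populations in cluster 6 was not tested.

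**Figure D5:**
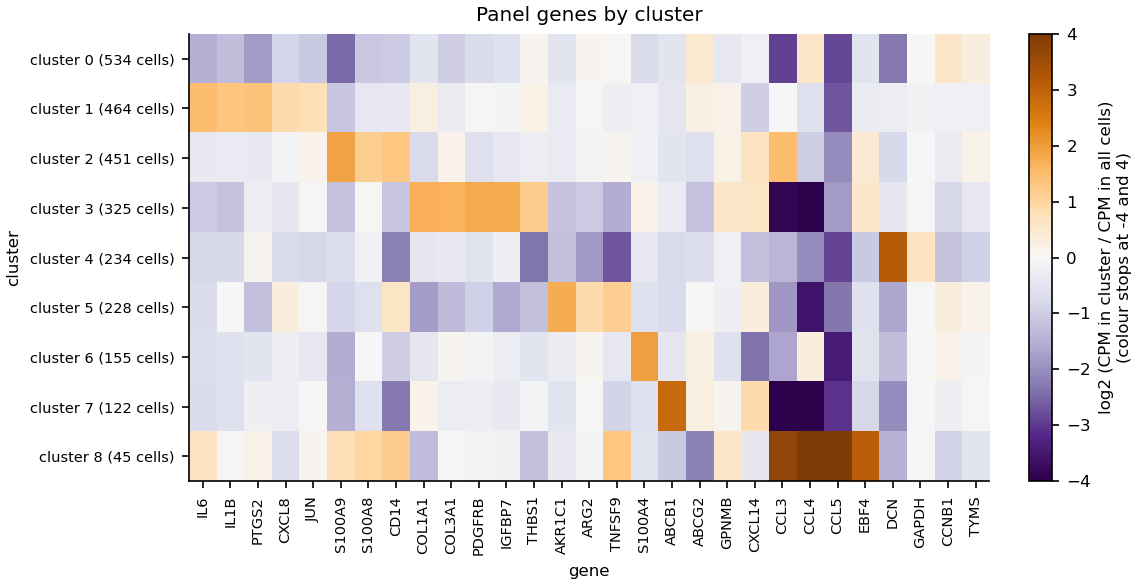
Level of 29 genes (x axis) in each of the 9 clusters (y axis, with cell numbers) relative to all 2558 cells, as log2 of the CPM ratio (orange higher, purple lower, colour ending at 4 in both directions). ABCB1 stands out in cluster 7, the cytokines in cluster 1, S100A9 in cluster 2, the matrix genes in cluster 3 and CCL5 in cluster 8.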

How the data were processed

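The authors deposited, per population, raw counts of RSEC-adjusted molecules (UMIs) per panel gene and cell, made on a cloud platform according to the study's methods. The submitters' processing notes name hg38. Filters on cells before deposit are not given in the sources used here. From the counts, cells of at least 1000 UMIs were kept. CPM is a gene's summed UMIs per 1000000. The expected count of a gene in a cell was the cell total times the gene's share over all cells. Pairs used genes with at least 200 UMIs in at least 50 cells and residuals with an overdispersion parameter theta of 100, clipped at the square root of the number of cells. Clusters were made with Leiden on 15 components and 15 neighbours at resolution 0.6. Shares carry exact Clopper-Pearson intervals, and ratios exact conditional binomial intervals, at 95%. Thinning drew 1000 UMIs per cell. No doublet caller was run. The cells with the most UMIs, 5%, were left out as an alternative.

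Named were the 4 markers, the measured pumps, the 15 most variable genes, the 5 most and 2 least variable of the chemokine, cycle and matrix lists, the highest and lowest pairs (1 is not reported here), the 6 largest folds each way per marker split and the 5 leading genes per cluster. The COL1A1, IL6 and S100A9 splits with their genes, the partners named beside the markers and the cytokine pairs were chosen after their values were seen. The members and the 17 gene lists were chosen with earlier results of these data known. Gene positions and promoters come from RefSeq tables of GRCh38.p14. Python 3.11.15, numpy 2.4.6, scipy 1.17.1, pandas 2.3.3, scikit-learn 1.9.0, igraph 0.11.9, leidenalg 0.10.2 and matplotlib 3.10.9 were used, and the measures were tested on simulated data.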

Additional observations from a re-analysis of the deposited data

How the results depend on the processing

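No paired analysis was possible because each population was measured once and the labels carry no replicate numbers, and no population could be left out in turn. The count of variable genes, 164, lay between 110 and 173 over its 8 alternatives. Thinning to 1000 UMIs left 368 pairs at 0.2 or above, of which 362 were among the 820, and 68 at -0.2 or below, while Spearman's rho of CPM gave 1758 and log2(CPM + 100) gave 2354 positive pairs. In the ABCB1 split (3 higher, 5 lower), totals without the 5 most abundant genes gave 0 and 8, thinning 0 and 3, and leaving out cells fitting another profile 1 and 1. In the GPNMB split (10 and 4) thinning gave 4 and 1, of which 2 and 1 were shared. In the CXCL14 split (3 and 12), other totals and thinning each gave 1 higher gene, shared in the first case and not in the second, leaving out cells fitting another profile gave 7 lower genes, and a minimum of 2 UMIs gave 5 and 20. In the CCL4 split (10 and 22), thinning gave 3 and 12, of which 2 and 4 were shared, and leaving out cells fitting another profile 5 higher genes. Without thinning the shares of cells with a UMI were 80.6% for ABCB1, 57.1% for GPNMB and 7.23% for CXCL14, against 68.8%, 38.3% and 2.81%. Other settings gave 10, 13 and 6 clusters in place of 9, and 43, 45 and 44 of the 45 CCL5 cells stayed together in them. The other clusters depended more on the setting. With cycle genes kept, 37.5% of cluster 0 and 41.6% of cluster 1 stayed together and 91 of the 122 ABCB1 cells lay in a cluster of 321, and at resolution 0.3 most cells of clusters 0, 1, 3, 6 and 7 fell into 1 cluster of 1538. The cause of these shifts was not tested. None of the called named pairs changed sign, while 6 of the 143 negative pairs lay above 0 with other totals, and, among the genes named, the ratios of CD3D and FOXC1 (CCL4 split) and KRT5 (GPNMB split) crossed 1 without 1 cell. The pair alternatives clipping residuals at 10, the GPNMB split against all cells at 0 and variable genes without each gene's top cell were chosen after seeing the data. Depth limits rare genes most, since 1000 UMIs show 1 molecule of a gene only from 1000 CPM on average.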

Other observations

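The 1218 barcodes below 1000 UMIs, which the cell minimum left out, held 3.57% of the UMIs of the population, with a median of 212.5 UMIs. Their ABCB1 level was 4629 CPM, against 6270 CPM in the 2558 cells kept, and their GPNMB level 641 CPM, against 1172 CPM. Their CCL5 level was 2759 CPM, against 1185 CPM, and their GAPDH level 293194 CPM, against 219169 CPM. These barcodes entered no other comparison.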
